A study of Arabidopsis thaliana with 7 samples.

Results

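Small RNA loci rich in long fragments are regions of the Arabidopsis thaliana genome (build TAIR10) where at least 20% of the small RNA reads were longer than 24 nt and which the authors' locus table does not mark as a microRNA gene. These loci numbered 6931 of the 25025 in the table, or 27.7%. The members were chosen by 2 measured values of each locus, its long reads and all its reads, so the share of long reads describes them and is not a finding. All 6930 loci to which the table gives no length call were among them, and 1 further member was called 21 nt. A length call and the rule both use the read lengths of a locus, so this match is not a finding either. None of the 74 loci marked as microRNA genes reached the threshold.

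The series followed roots of seedlings under phosphate starvation. The small RNA sample came from the complete root systems of 14-day-old seedlings of the line labelled 35S:HF-FLAG-RPL8, grown with 500 µM phosphate. The growth notes name the tag 35S:His6FLAG-RPL18B, line 12-2-4 in Columbia-0, and the labels do not settle which ribosomal protein carries it. In both spellings the constitutive 35S promoter drives the transgene. Poly(A) RNA and ribosome footprints (fragments of 26 to 32 nt that ribosomes shield) were measured in roots of the same line after 7 days at 0 µM phosphate and in control roots kept at 500 µM for the same time. Double-stranded RNA was measured in Col-0 roots at 0 µM and at 500 µM phosphate, over the same days. Each of these 6 groups has 2 replicate columns, while the small RNA table holds 1 total per locus and has no replicate check. No small RNA value at 0 µM phosphate was analysed here.

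The small RNA table summed to 87277746 reads, and no listed locus had fewer than 90. Coding counts summed to 8940746 to 26722907 per low phosphate library and 7156329 to 26746252 per control library, while dsRNA counts summed to 2735264 and 4683670 in low phosphate and 3246810 and 8249514 in control roots. The 8 root markers examined, which include SCR, SHR, CASP1 and the root hair gene EXP7, had poly(A) counts in all 4 libraries, with a summed level of 705 to 820 CPM (counts scaled to the same library total). The 6 photosynthesis genes examined were detected too and summed to 179 to 428 CPM, and their part in the results was not tested.

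Plant regulatory small RNAs are cut by Dicer-like enzymes to a few fixed lengths, and loci that yield them show a sharp peak at one length. Pieces of ribosomal RNA (rRNA), transfer RNA (tRNA), small nucleolar RNA (snoRNA), spliceosomal small nuclear RNA (snRNA), organelle RNA and messenger RNA lack that fixed length and usually come from the strand of the parent RNA. Box C/D snoRNAs, which guide methylation of rRNA, carry a C box with the letters UGAUGA near their start and a D box with the letters CUGA near their end, and tRNA genes carry an A box close to the start of the tRNA.

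The most abundant RNA of a locus, called its major RNA, is the only sequence the table gives for it. Here are the major RNAs of the loci with the most reads on nuclear rRNA genes, the plastid, the mitochondrion and an unannotated stretch of chromosome 5, shown because these loci hold most of the reads. All letters are in lower case here, and motifs are marked only in the snoRNA and tRNA sets.
45S rRNA loci chr3:14191695-14208930 and chr2:1002-10785: uuccgaacccgucggcugucagcgga
plastid loci chrC:125436-154478 and chrC:93150-111078: aacagaccgguagacuugaac
plastid locus chrC:50691-93068: uaauuucuacucuaccuuccccgagc
mitochondrial locus chrM:4256-13004: aagccugccugacugugagaccga
mitochondrial locus chrM:342018-365442: caaaccgggcacuacggugagacgugaa
unannotated loci chr5:12849166-12870501 and chr5:12807207-12827440: auuacggacccaaaauuacuuguu
unannotated locus chr5:4161978-4162353: uccgcuguagcacacaggccaau

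The next set comes from loci over snoRNA genes and shows how some of their major RNAs end. Only major RNAs that hold UGAUGA or CUGA are shown. The major RNA of chr3:17445046-17446360, a snoRNA locus with 60266 reads, holds neither and is left out. Over the 136 loci of the snoRNA class, CUGA was found in 50.0% of major RNAs and UGAUGA in 12.5%. Capitals mark UGAUGA and CUGA, both searched on the strand as printed, and overlapping matches are merged. Runs over 30 bases are given by their last 30.
AT3G03175 at chr3:5387111-5387288, bases 3 to 32: acugugacgauagcaagugccguCUGAgcu
AT2G35744 cluster at chr2:15029060-15030257, bases 3 to 32: acauUGAUGAuacuucugcaauuCUGAggc
SNOR30 cluster at chr5:20795603-20796461, bases 3 to 32: ucugugucgauaaccccgCUGAuCUGAgcc
chr2:2184404-2185090: uaccgaUGAUGAuuauugcuaaac
chr1:10300213-10301348, bases 2 to 31: uucgugauugauuugccauauuuuCUGAuc
chr1:29910907-29911846: cggcgaUGAUGAUGAaacaagauuac
tRNA-Gly and snoRNA locus chr1:2107292-2107474, bases 2 to 31: aucaguugauauugccccauuCUGAgcucu

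Of the major RNAs shared by several tRNA loci, the 7 whose loci had most reads together are shown, and 1 locus stands for each sequence. Capitals mark matches to the A box, and overlapping matches are merged, as at chr1:22394532-22394778. Runs over 30 bases are given by their first 30 unless bases are named. A line without capitals holds no match to the A box.
tRNA-Gly, 12 loci, chr5:18558522-18558920: gcgucugUAGUCCAACGGuuaggauaauug
tRNA-His, 6 loci, chr4:18293771-18293859: guggcugUAGUUUAGUGGuaagaauuccac
tRNA-Ala, 15 loci, chr3:10750952-10752585: ggggaugUAGCUCAGAUGguagagc
tRNA-Glu, 6 loci, chr4:17500800-17500886: uccgaugucguccagcgguuaggauaucug
tRNA-Gly, 9 loci, chr1:22394532-22394778, bases 2 to 31: caccagUGGUCUAGUGGUAGAAUAGuaccc
tRNA-Glu, 2 loci, chr1:28519964-28520061: uccguuaucguccagcgguuaggauaucug
tRNA-Glu, 10 loci, chr4:17129677-17130581: uccguugUAGUCUAGCUGgucaggauacuc

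The last set comes from snRNA genes, from protein-coding genes, which held most of the loci, and from the leading loci over noncoding genes and over a stretch of chromosome 2 whose sequence the mitochondrion shares. The major RNA at AT2G20410, annotated as protein-coding, is shown beside that of the spliceosomal U2.6 gene because they differ at 1 base, A9G, counted from the first base of the U2.6 major RNA.
U12 at chr1:22603126-22603373: uugcagaacucaccucgugcgggccucccu
U2.6 at chr3:21004495-21004783: uacugcacaggcuuggcucaacccgc
AT2G20410 at chr2:8802088-8802468: uacugcacgggcuuggcucaacccgc
U1.5, U1.6 and U1.7 loci, here chr1:2537528-2538322: uaccuggacggggucaacucgc
AT2G43150 at chr2:17945750-17947038: aaggaucguggcguggaaauc
TIP2 at chr3:9722444-9723210: aaccagggaaugugaauuaugaa
UBQ10 at chr4:2718163-2720424: ugaggauggacguacuuuggccgac
SAMDC at chr3:509694-511459: ugccucugcccaggacuccagcaac
AT1G05163 and AT1G15405 at chr1:5297803-5298180: cccacgggucggaucuguuguggc
chr2:3384634-3408015: uuucuguaccagcuucuucuacc
chr2:3492871-3506165: uucgacuccguccuuggccucca

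Long-fragment loci held 33053980 of the 87277746 reads, or 37.9% (exact 95% binomial interval 37.86% to 37.88%), and 95.1% of all reads longer than 24 nt, which the choice of the members fixes. Intervals cover counting error only, since amplified reads are not independent molecules. Most members were small, with a median of 172 reads and quartiles of 118 and 320, against a median of 539 reads at the 18094 other loci. Fewer than 200 reads fell on 3997 members, and the 6353 members with fewer than 1000 reads held 4.34% of the member reads. At the other end 124 members had at least 10000 reads and 11 had at least 100000.

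A pair of loci held most of the reads. Both lie over 45S rRNA genes, the repeated units that encode the large structural RNAs of the ribosome. The locus at chr3:14191695-14208930 held 13704269 reads, or 41.5% of the member reads, and the locus at chr2:1002-10785 held 12481926, or 37.8%. The third locus, on the plastid, held 274110 reads, so the first was 50.0-fold larger. Together 10 loci held 83.9%, 100 loci held 90.6%, and 406 of 6931 were enough for 95% of the member reads. Among the 14805 loci of 24 nt read from both strands the first 10 held 1.92% of the reads, and among the 341 loci of 21 nt they held 81.3%. Without both rRNA loci the members held 6867785 reads, 11.2% of what was left in the table, and the first 10 of them then held 25.3%.

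**Figure D1:**
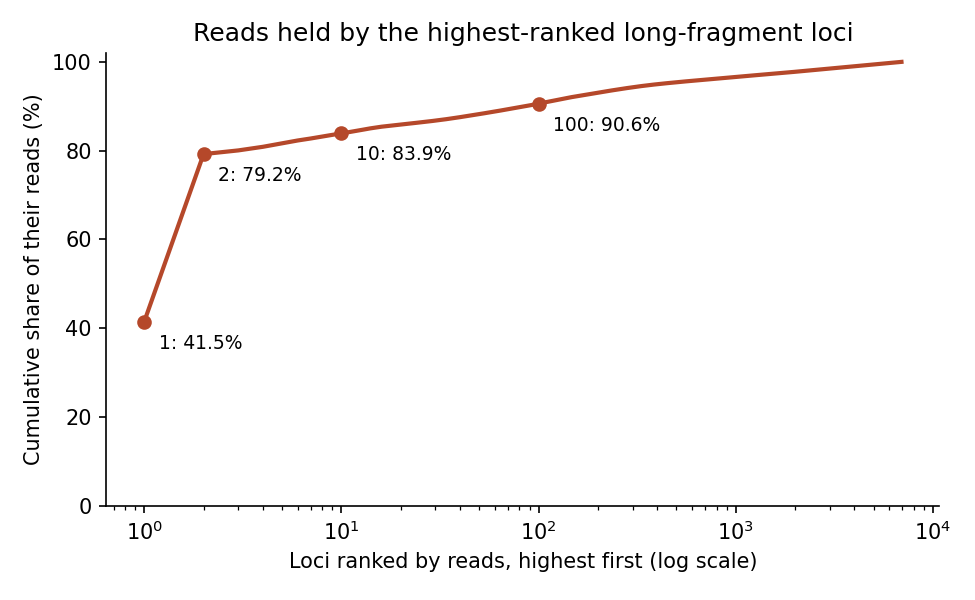
Cumulative share of the reads of the 6931 long-fragment loci (y axis, percent) against the rank of the locus by reads (x axis, log scale), with points at ranks 1, 2, 10 and 100. The curve stands at 41.5% at rank 1 and 79.2% at rank 2, and rises slowly after that to 90.6% at rank 100.

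The shares of long reads fell into separate ranges over the table. Of all loci, 10620 had at most 2% long reads and 6367 more had up to 5%, while 2150 lay above 40% up to 50% and 2096 above 50% up to 60%. Between 15% and 20% lay 166 loci, just outside the threshold, and between 20% and 25% lay 153, just inside. Among loci of at least 1000 reads, the members nearest the threshold had 20.3% (chr1:14195538-14199035), 20.5% (chr3:13862392-13867024) and 20.6% (chr5:14294801-14295345) long reads. The nearest loci outside had 19.9% (chr3:18466134-18466622, over the phytosulfokine precursor gene PSK4), 19.9% (chr3:14227916-14229084) and 19.8% (chr3:13832950-13841100). Long reads made up 47.8% of the reads of the rRNA locus on chromosome 3 and 48.3% of those on chromosome 2. With a threshold of 50% they drop out, and the members left, 3547 loci, held 3.83% of all reads.

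Reads of the members spread over every length counted. Those longer than 24 nt made up 49.1%, and 21, 22, 23 and 24 nt reads made up 13.5%, 12.6%, 12.6% and 12.2%. At the other loci 24 nt reads made up 45.1% and 21 nt reads 32.6%. The table holds few 20 nt reads anywhere, 24545 in all against 22158454 of 21 nt, and none that is shorter. The choice of members by long reads partly fixes the length shares and the length of the major RNA. These contrasts describe the members and are not a finding. The major RNA was 24 nt at 85.0% of other loci. At members it was most often 21 nt, at 18.9% of loci, and the share declined slowly towards the longest major RNA, of 42 nt. It was at least 25 nt at 3095 members (44.7%) and at 27 other loci. At 1273 members it was over 28 nt, beyond the 18 to 28 nt gel window that the extraction notes give. The major RNA began with U at 37.9% of members and with A at 35.2%, against 12.1% with U and 77.5% with A at other loci.

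**Figure D2:**
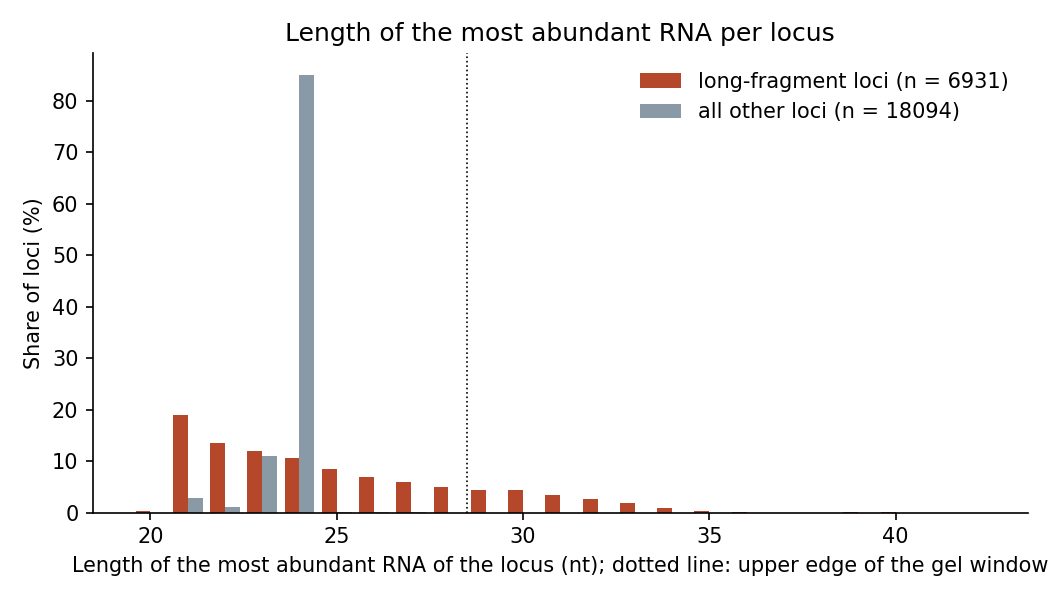
Share of loci (y axis, percent) by length of their most abundant RNA (x axis, nt) for the 6931 long-fragment loci and the 18094 other loci, with a dotted line at the upper edge of the gel window. Members spread from 20 to 42 nt with 18.9% at 21 nt, while 85.0% of the other loci stand at 24 nt. The choice of members by long reads partly fixes this contrast.

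Members were read from one strand. At 6589 of 6931 (95.1%) at least 80% of the reads lay on 1 strand, the top strand at 3316 and the bottom strand at 3273. The share was 16.5% over the other loci, most of which are the 14805 loci of 24 nt grouped as read from both strands. It was 100% at the 74 microRNA loci, 50.4% at the 21 nt loci and 58.8% at the 22 and 23 nt loci. On the organelle chromosomes a smaller share of members was one-stranded, 8 of 17 on the plastid and 26 of 59 on the mitochondrion. In the protein-coding class 5947 of 6207 members were. Median locus length was 526 bases for members and 676 for other loci. The shortest member, chr5:943150-943176, spanned 27 bases and held 137 reads, while the longest, chrC:50691-93068 on the plastid, spanned 42378 bases and held 107382 reads, 49.2% of them on the top strand. Complexity, a fraction from the table whose value can fall as reads accumulate, had a median of 0.559 at members and 0.379 at other loci, yet was 0.023 and 0.021 at the chromosome 3 and chromosome 2 rRNA loci.

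**Figure D3:**
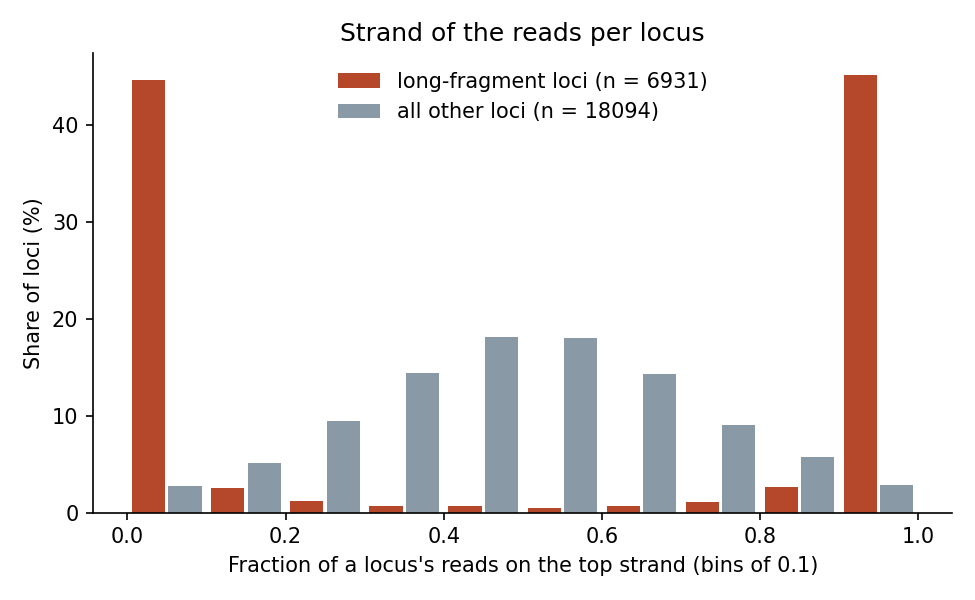
Share of loci (y axis, percent) by the fraction of their reads on the top strand (x axis, bins of 0.1) for the 6931 long-fragment loci and the 18094 other loci. Members pile up in the outermost bins, with 44.7% in the lowest, while other loci centre near 0.5. Most of the other loci are the 14805 of 24 nt grouped as read from both strands.

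Loci over structural RNA genes and on organelle chromosomes were few and held nearly all reads. Each member was put in 1 class, first by organelle chromosome and then by any shared base with a gene of RefSeq's TAIR10.1 annotation, taken in the order rRNA, tRNA, snoRNA, snRNA, protein-coding, other noncoding, pseudogene. Structural RNA genes (the first 4 kinds) were overlapped by 528 members, 7.62% of them, with 87.3% of the member reads. With the 76 members on organelle chromosomes this came to 604 members (8.71%) and 92.2% of the reads. The other 6327 members held 7.84%. Members covered 4 of 4 annotated nuclear rRNA genes, 267 of 287 snoRNA genes, 376 of 625 tRNA genes and 39 of 82 snRNA genes, while other loci covered 0, 5, 97 and 10 of them. The 4 rRNA genes, AT3G41768, AT3G41979, AT2G01010 and AT2G01020, all lie in the leading loci on chromosomes 3 and 2. Any rRNA gene that the annotation lacks was not counted, and loci over it would fall in other classes. Requiring the gene to cover at least 50% of the locus left 276 members over structural RNA genes. The reads of these 276 were not summed, so whether the 87.3% holds at this setting was not tested. That share rests mainly on the rRNA loci, which held 79.2% of the member reads. Overlaps disregard strand, since the annotation table used has none.

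**Figure D4:**
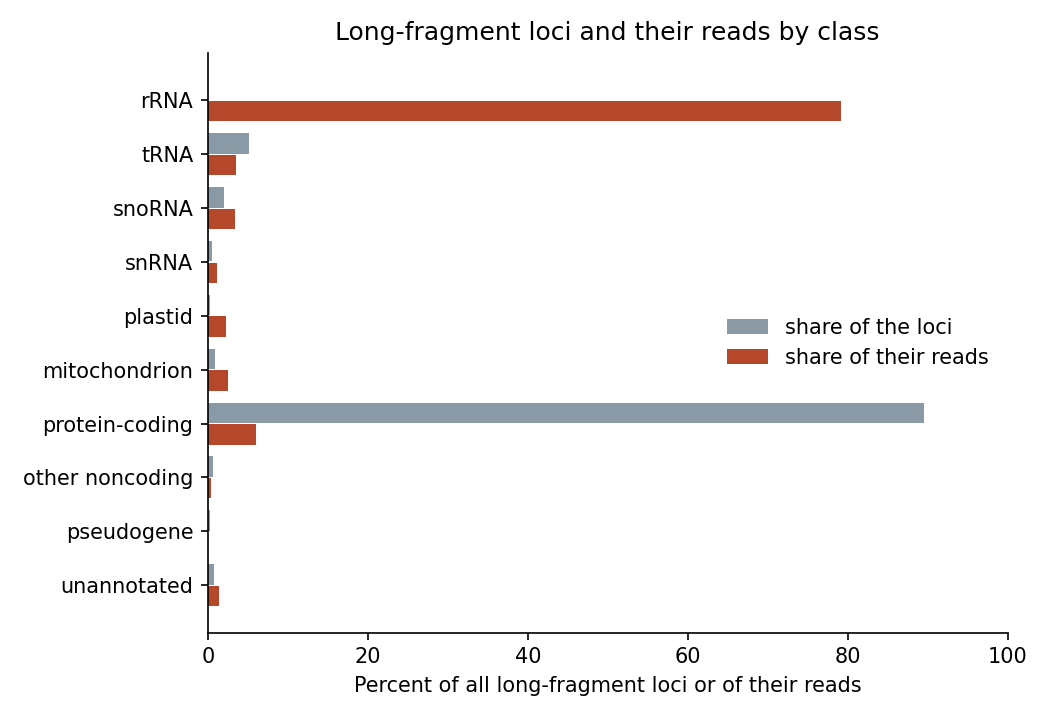
Share of the 6931 long-fragment loci and share of their 33053980 reads (x axis, percent) in each of 10 classes (y axis). The rRNA class has 2 loci and 79.2% of the reads, while the protein-coding class has 89.6% of the loci and 5.97% of the reads.

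The rRNA loci resembled each other closely. They had 98.3% (chromosome 3) and 98.7% (chromosome 2) of their reads on the top strand, 13.8% and 13.7% at 21 nt, and 12.3% and 12.2% at 24 nt. Their shared major RNA had 261658 and 260257 reads, only 1.91% and 2.09% of each locus. Reads that fit both loci cannot be set apart, so how far read placement gives this likeness was not tested. Protein-coding annotations within these loci, AT3G41762 on chromosome 3 and AT2G01008, AT2G01021 and AT2G01023 on chromosome 2, had poly(A) and footprint counts at or near 0 in all 8 coding libraries. In dsRNA AT2G01021 had 197630 and 148630 CPM in low phosphate, against 111060 and 145490 CPM in control roots, which did not pass edgeR's quasi-likelihood test (log2 fold change 0.44, SE 0.30, adjusted p = 0.37). The dsRNA samples had been depleted of rRNA before sequencing, per the labels, and reads of overlapping rRNA and protein-coding annotations cannot be told apart in that table.

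The tRNA class had 352 members with 1163787 reads, 3.52% of the member reads, and 71.0% of these reads were long. Transfer RNAs bring amino acids to the ribosome. Of these members 335 overlapped tRNA genes of a single amino acid, and all 20 amino acids occurred, but reads were uneven. The 39 glycine loci had 370125 reads (31.8% of the class), the 10 histidine loci 214747 (18.5%), the 23 glutamate loci 205472 (17.7%) and the 32 alanine loci 147902 (12.7%). The glycine reads include 35812 and 34378 at the leading loci, which also overlap snoRNA genes. Long reads made up 77.0%, 87.6% and 86.2% of the glycine, histidine and glutamate reads but 39.6% of the alanine reads. The A box was found in 171 of 352 major RNAs (48.6%), against 3.46% of all members and 0.956% of other loci, and in 151 of these 171 it began at base 8, as in the sequences shown above. Among major RNAs of at least 25 nt the shares were 57.3% in the tRNA class and 5.30% over all members.

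Loci with the same major tRNA fragment held nearly equal reads in some groups and unequal reads in others. The histidine sequence was the major RNA at 6 loci on 4 chromosomes, which held 25792 to 26206 reads each. The 12 glycine loci, on 5 chromosomes, held 14000 to 14293 reads each, and the 15 alanine loci, also on 5 chromosomes, 5730 to 10365. The 9 loci of the other glycine sequence held 5122 to 11839 reads each, and the 27 loci of a serine sequence 181 to 468. Over all members, 115 sequences were the major RNA of more than 1 member, 397 members in all (5.73%) with 86.6% of the member reads, and 258 of the 352 tRNA loci were among them. In 58 of the 115 groups the counts of the shared sequence differed by at most 1.1-fold. Loci with the same major RNA cannot be counted as separate sources, since the table gives no reads placed at a single position.

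The snoRNA class had 136 members with 1124388 reads, 3.40% of the member reads, of which 63.7% were long. These RNAs guide chemical changes of rRNA in the nucleolus, and in plants many are encoded in clusters. The first locus, chr3:5387111-5387288 over AT3G03175 inside the protein-coding gene AT3G15920, had 123408 reads on the top strand, 97.4% of them long, and 33.6% of them were the single 32 nt RNA whose end is shown above. The cluster at chr5:20795603-20796461, which holds SNOR30, had 85030 reads, with 40.9% in its major RNA. The cluster at chr2:15029060-15030257 had 92279 reads on the bottom strand, with 11.7% in its major RNA. CUGA was found in 68 of 136 major RNAs (50.0%), against 17.3% of all members and 12.2% of other loci, and in 59 (43.4%) it lay within the last 10 bases, against 7.96% and 4.49%. UGAUGA was found in 17 (12.5%), against 2.21% and 0.685%. Of major RNAs of at least 25 nt, 42.9% in the snoRNA class and 8.14% over all members had CUGA in the last 10 bases.

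Members were put in 1 class each, but many overlap genes of more than 1 kind. The tRNA locus with the most reads, chr1:2107292-2107474, had 35812 reads and overlaps the tRNA gene AT1G06860 and the snoRNA gene AT1G04517. Its major RNA, 39.0% of its reads, has CUGA near its end and no A box, so the reads that lead this tRNA locus carry the snoRNA motif. The neighbouring locus chr1:2111054-2111826, with 34378 reads, also overlaps a tRNA gene and a snoRNA gene.

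The snRNA class had 38 members with 377273 reads (1.14%), all of them one-stranded. These RNAs form the core of the spliceosome, which removes introns. The U12 gene, whose RNA recognises the branch site of minor introns, led with 93758 reads, 93.8% of them long. The U2.6 locus had 28539 reads with 53.7% long, and the U1.5, U1.6 and U1.7 loci had 17535, 17171 and 17218 reads with 36.6%, 31.3% and 31.7% long. Major RNAs within 3 bases of that of U2.6 were found at 5 further members. They were U2.7, with A9G, U13C and A21U, U2.10b/12, with C8U, A9G and U13C, the protein-coding annotation AT2G20410, with A9G and 17890 reads, the noncoding annotation AT5G09935, with A9G, G11U and 22462 reads, and chr5:25066553-25066767 over noncoding annotations, with A21U and 2341 reads.

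Nearly every organelle locus was a member. On the plastid chromosome 17 of 17 loci, with 765616 reads, passed the threshold, and on the mitochondrial chromosome 59 of 63 did, with 99.4% of that chromosome's reads. On nuclear chromosomes 22.3% to 30.5% of loci were members, and the members held 59.7% of reads on chromosome 2 and 62.7% on chromosome 3, where the rRNA loci lie, but 6.13%, 8.07% and 11.2% on chromosomes 1, 4 and 5. The leading plastid loci, chrC:125436-154478 and chrC:93150-111078, had 274110 and 268708 reads, with 13.2% and 87.7% on the top strand and the same major RNA. Reads of the same RNA placed at both loci and reads of separate RNAs cannot be told apart, so these shares do not show RNA from both strands. The leading mitochondrial locus, chrM:4256-13004, had 259687 reads with 0.500% on the top strand, and chrM:342018-365442 had 210054 reads, of which 62.3% were long and 14.4% were a single 28 nt RNA. The third, chrM:13079-31226, had 44175 reads with 48.2% long. Organelle loci were not matched to genes.

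Chromosome 2 carries near its centromere a long copy of mitochondrial DNA, and members there matched members of the mitochondrion. The major RNA was the same at 18 members of chromosome 2 and 19 of the 59 mitochondrial members, and at no other nuclear members. The 18 lie between chr2:3246867 and chr2:3506165, a span with 38 members and 258127 reads. Counts of the shared RNA were close in most pairs, with chromosome 2 to mitochondrion ratios of 0.75 to 1.69 over all pairs, while reads of whole loci differed more, up to 344 against 6265. The shared RNA had 5757 reads at chr2:3492871-3506165 and 5709 at chrM:103245-110244, and another had 3111 at chr2:3410100-3429851 and 3170 at chrM:156379-173600. No nuclear member shared its major RNA with a plastid member. The chromosome 2 members include the third tRNA locus by reads, chr2:3492871-3506165 with 30452, and the leading protein-coding loci, chr2:3384634-3408015 and chr2:3410100-3429851 with 27658 and 23745. Which genome their reads came from cannot be told apart.

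Among members without any annotated gene, a pair of long loci on chromosome 5 stood out by length mix. The loci chr5:12849166-12870501 and chr5:12807207-12827440 had 150939 and 146085 reads, 22.9% and 23.4% of them long and 36.0% and 35.7% of 24 nt, with 11.1% and 11.3% on the top strand. The third unannotated locus, chr5:4161978-4162353, had 102903 reads in 376 bases, 99.9% on the top strand, with 33.5% of 23 nt. The 23 nt RNA uccgcuguagcacaucgguuaau led both chr2:12331183-12333138 over the pseudogene AT2G28750, with 11455 reads, and the unannotated locus chr2:12334862-12335092, with 8973 reads. All 54 unannotated members together had 475831 reads, 26.9% of them long. Whether any of these members carry structural RNA that the annotation lacks was not tested.

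Most members lay within protein-coding genes and were small. The protein-coding class had 6207 members (89.6%) with 1974775 reads (5.97%), a median of 160 reads and a median length of 551 bases. Any protein-coding gene was overlapped by 6374 of 6855 nuclear members (93.0%), against 3356 of 18090 other nuclear loci (18.6%). Of the 5732 members over exactly 1 protein-coding gene and no structural RNA gene, 5444 (94.98%) lay wholly within it. The strand of the gene was known for 5660, and 5512 of these members had a strand call. The reads were sense to the gene at 5503 of the 5512 (99.8%) and antisense at 9. Of 3092 other loci over exactly 1 protein-coding gene, microRNA loci left out, the strand of the gene was known for 1679. Of these, 391 had a strand call and 215 (55.0%) were sense. The member reads thus lay on the mRNA strand.

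Beyond the loci in the mitochondrial copy, AT2G16586 had the most reads of this class, 23474, with 37.1% long and 78.3% on the top strand. Among members with reads sense to a single gene, AT2G43150 had 22178 reads, AT2G20410 17890, the aquaporin gene TIP2 12708, the polyubiquitin gene UBQ10 10892, the cytokinin response regulator gene RR3 9408 and the polyamine synthesis gene SAMDC 7762. Long reads made up 36.6%, 57.6%, 70.3%, 55.3%, 40.3% and 50.7% of these. At TIP2 the major RNA was 3.80% of the reads, at UBQ10 3.36% and at SAMDC 1.64%, so many different fragments made up these loci, while at AT2G43150 it was 21.6%. Of the 9 antisense members, the first had 5883 reads at BXL3, a gene named for beta-xylosidases.

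Whether a gene held a member followed its poly(A) level. Levels were control poly(A) CPM divided by the gene's span in kilobases, introns included. They cover 4200 genes that hold a member and 15487 others, all of which passed the low-count filter. Tested genes without a span in the gene list used were left out. The median level was 34.1 CPM per kb (quartiles 16.7 and 69.0) for genes holding a member and 4.75 (quartiles 1.77 and 10.7) for the others. Genes were divided by level into 10 groups of equal size. In the highest group, from 43.9 CPM per kb up, 1699 of 1968 (86.3%) held a member. In the next group 53.1% did, in the fifth 10.0%, and in the lowest group 2.29%. Over 4058 genes whose members were all of the protein-coding class, small RNA reads per kb and control poly(A) CPM per kb had a Spearman correlation of 0.66 across genes, which are not independent replicates and share their span as divisor. A locus needs 90 reads to be listed, so genes with fewer fragments are not seen.

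**Figure D5:**
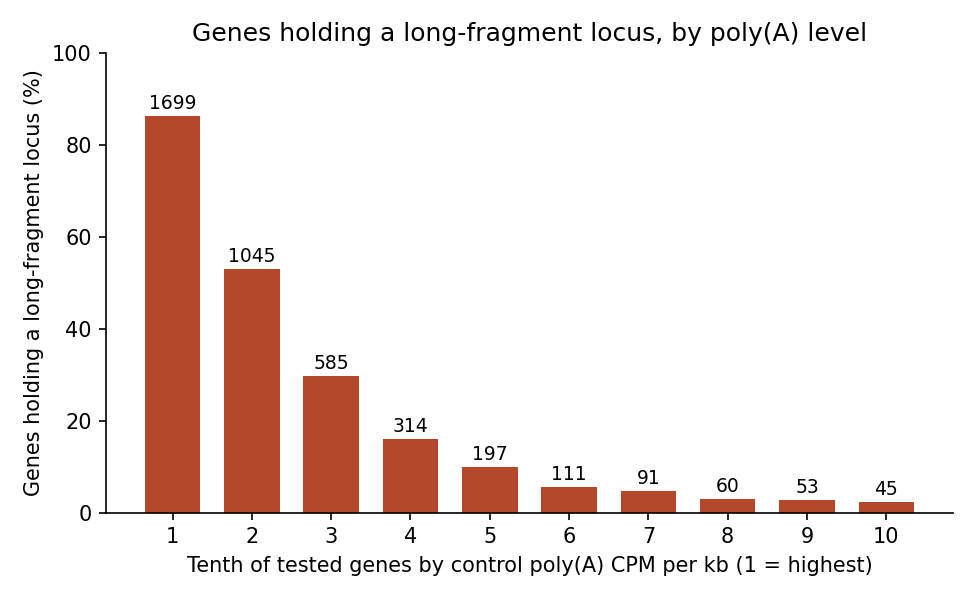
Share of tested protein-coding genes that hold a long-fragment locus (y axis, percent, with the number of such genes above each bar) in 10 groups of genes by control poly(A) CPM per kb (x axis, 1 is the highest group). The share is 86.3% in the highest group and 2.29% in the lowest. Tested genes without a span in the gene list used are left out.

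In low phosphate 82 of the 4200 tested genes holding a member changed in poly(A) RNA, 65 higher and 17 lower. This is 1.95% of them, against 1.18% of all 19866 tested genes (0.931% higher, 0.252% lower), by edgeR's quasi-likelihood test at an adjusted p under 0.05. The median log2 fold change was -0.02 for genes holding a member and 0.00 for all genes. The median log2 CPM was 6.51 and 4.12 in these sets. More abundant genes are measured with less error, and whether the level alone gives the difference in called shares was not tested. Fewer cells of a type and less RNA per cell cannot be told apart in these bulk roots. When low phosphate replicate 1 or 2 was left out, 44 or 49 genes were called, and when control replicate 1 or 2 was left out, 31 or 45. These were 1.05%, 1.17%, 0.738% and 1.07% of the genes holding a member, against 0.507%, 0.586%, 0.295% and 0.596% of all genes in the same fits, where the lone library left is assumed to vary like the other groups.

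Of the 10 called genes with most small RNA reads, 5 were higher and 5 lower in low phosphate. Among the higher, the annexin gene ANNAT1, for a calcium-binding membrane protein, had 1163 and 1248 CPM in low phosphate, against 492 and 512 CPM in control roots (log2 fold change 1.27, SE 0.13, adjusted p = 0.0016 by edgeR). G3Pp1, of the glycerol-3-phosphate permeases, had 741 and 554 CPM in low phosphate and 156 and 263 CPM in control roots (log2 fold change 1.63, SE 0.32). The groups did not overlap for either gene, but both were named because they were called. With 2 libraries per group such separation can arise without a change, and its share over all genes was not counted. HIR2, AT3G54580 and AT2G33830 had log2 fold changes of 0.80, 1.38 and 1.05. Among the lower, NRT1.1, a nitrate transporter and sensor, had 346 and 375 CPM in low phosphate, against 1017 and 944 CPM in control roots (log2 fold change -1.44, SE 0.15). PHO2, a ubiquitin-conjugating enzyme that brings down phosphate transporters, had 291 and 264 CPM in low phosphate, against 545 and 508 CPM in control roots (log2 fold change -0.92, SE 0.15, adjusted p = 0.018 by edgeR). GSR2, a glutamine synthetase, MT1C, a metallothionein, and AT2G28780 had log2 fold changes of -1.004, -0.98 and -1.54. AT2G28780 holds 3 members, and most of their 15674 small RNA reads lie in a member that also overlaps a tRNA gene. The calls of ANNAT1 and NRT1.1 held whichever of the 4 libraries was left out, while those of GSR2, HIR2, G3Pp1, PHO2, AT2G33830 and MT1C missed the threshold each time. That of AT3G54580 missed it without control replicate 1, and that of AT2G28780 with either low phosphate replicate 1 or control replicate 1 left out.

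Ribosome footprints changed at 81 of the 4200 genes holding a member, 62 higher and 19 lower in low phosphate. This is 1.93% of them, against 1.19% of all 19866 tested genes (0.911% higher, 0.282% lower). The median log2 fold change was 0.00 in both sets. The count was 51 with low phosphate replicate 1 left out (1.21%, against 0.594% of all genes) and 43 with control replicate 1 left out (1.02%, against 0.458%). SQD2, an enzyme of sulfolipid synthesis that spares phospholipids, had 354 and 423 footprint CPM in low phosphate, against 44.5 and 69.1 CPM in control roots (log2 fold change 2.77, SE 0.27, adjusted p = 0.0014 by edgeR). PPC1, a phosphoenolpyruvate carboxylase, had 1302 and 1377 CPM in low phosphate, against 605 and 765 CPM in control roots (log2 fold change 0.96, SE 0.16). The metallothionein gene MT1A had 231 and 155 CPM in low phosphate, against 602 and 544 CPM in control roots (log2 fold change -1.57, SE 0.20), and its poly(A) log2 fold change was -0.52 with an adjusted p of 0.43 by edgeR. In poly(A) RNA the log2 fold change of SQD2 was 2.92 (adjusted p = 0.00095 by edgeR) and that of PPC1 0.67 (adjusted p = 0.12 by edgeR). The other 7 named genes, ANNAT1, AT3G54580, G3Pp1, NRT1.1, MT1C, GSR2 and AT2G28780, likewise changed in footprints in the same direction as in poly(A) RNA. The footprint calls of SQD2, ANNAT1, NRT1.1 and MT1C held whichever library was left out, those of MT1A and AT3G54580 missed the threshold without control replicate 1, and those of GSR2, G3Pp1, PPC1 and AT2G28780 held in 1 of 4 such fits.

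Double-stranded RNA, measured in Col-0 roots, changed at 844 of the 4272 tested genes holding a member, 611 higher and 233 lower in low phosphate. This is 19.8% of them, against 15.7% of all 17570 tested genes (10.2% higher, 5.57% lower). The median log2 fold change was 0.06 for genes holding a member and -0.02 for all genes. The median log2 CPM was 6.03 for genes holding a member and 4.13 for all, and its part in the difference was not tested. The count rested on single libraries. It was 1901 when low phosphate replicate 2 was left out, or 44.2% of genes holding a member, against 28.1% of all genes. It was 225 or 226 when control replicate 1 or 2 was left out, or 5.27% and 5.26%, against 4.65% and 5.03% of all genes, so the shares were then close. TIP2 had 946 and 758 dsRNA CPM in low phosphate, against 448 and 528 CPM in control roots (log2 fold change 0.82, SE 0.23, adjusted p = 0.0055 by edgeR). EXT3, an extensin of the cell wall, had 2020 and 1630 CPM in low phosphate, against 733 and 640 CPM in control roots (log2 fold change 1.42, SE 0.24). HA2, a plasma membrane proton pump, had 1584 and 2077 CPM in low phosphate, against 3394 and 3648 CPM in control roots (log2 fold change -0.93, SE 0.25). AT2G28780 had 12.1 and 9.02 CPM in low phosphate, against 173 and 194 CPM in control roots (log2 fold change -4.07, SE 0.27, adjusted p = 9.2e-47 by edgeR). DOX1 and AT2G07777 were higher, with log2 fold changes of 1.71 and 0.69, and RR3, HSC70-1, GSR2 and AT2G07825 lower, with -0.78, -0.72, -0.79 and -1.06. AT2G07777 and AT2G07825 lie in the stretch of chromosome 2 copied from the mitochondrion and had 0 poly(A) and footprint counts in all 8 libraries. The dsRNA call of AT2G28780 held in each of the 4 fits that leave out a library. Those of TIP2, EXT3, HA2, RR3, HSC70-1, GSR2 and AT2G07777 missed the threshold without either control library, that of DOX1 without control replicate 2, and that of AT2G07825 in every such fit but the one without low phosphate replicate 1. DESeq2 did not call AT2G07825 either (adjusted p = 0.21).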

How the data were processed

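Small RNA, poly(A), footprint and dsRNA libraries of Arabidopsis roots were analysed from processed tables. Per the file headers and labels, the deposited small RNA table is a ShortStack locus list with raw read counts per locus and length, and fractions (top strand, complexity) that the authors' tool gave. UniqueReads and Short are 0 in every row. The deposited coding and dsRNA tables hold raw counts per gene. From the deposited RPKM tables of untranslated regions only coordinates and strands in the row names were used, and from the noncoding count table only coordinates. The submitters' processing notes name TAIR10, CASAVA 1.8, TopHat 1.3.1 and Bowtie2 2.2.9. The ShortStack version, the tool that counted reads and whether it used strand were not given in the sources used here.

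Genes came from RefSeq's TAIR10.1 table, for names and overlaps on nuclear chromosomes only. Of 21120 nuclear genes with deposited coordinates, 98.9% lay inside the RefSeq span of the same gene. Overlaps used Python 3.11.15, pandas 2.3.3 and SciPy 1.17.1. An overlap needed 1 base. Loci of a single table are not replicates, so comparisons between loci are descriptions without a test, and shares of reads carry exact Clopper-Pearson intervals.

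Genes holding a member were tested in low phosphate against control with edgeR 4.0.16 (quasi-likelihood, TMM, filterByExpr, R 4.3.3), fitted over all genes of all 8 coding libraries, or of the 4 dsRNA libraries, with Benjamini-Hochberg adjustment and checked on simulated data. DESeq2 1.42.0, RLE scaling, no filter, a replicate block and left-out libraries were alternatives. Nothing says that replicate columns came from separate cultures, so p-values measure the spread between these libraries, which may be technical.

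The text names the 12 members with most reads, 3 per class other than pseudogenes, those beside the threshold, the longest and shortest, genes under the 12, and up to 10 called genes per assay with most small RNA reads. Other sequences, pseudogene, U2-like, antisense and leading sense members were chosen after their values were seen. Members and lists were chosen with earlier results of these data known.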

Additional observations from a re-analysis of the deposited data

How the results depend on the processing

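The number of members was 3547 with a threshold of 50% long reads. It was 7289 at 10%, and neither a minimum of 100 reads nor keeping microRNA loci moved it by over 1.5-fold. The share of all reads in members was 38.9% at 10%, 3.83% at 50%, 37.8% with at least 100 reads and 11.2% without both rRNA loci. One-stranded members made up 92.9% at 10% and 98.4% at 50%, and 89.9% where 90% of reads on a strand were asked. The first 10 loci held 82.1% at 10%, 24.4% at 50%, 84.1% with at least 100 reads, 73% without the first locus, 86.0% without organelle loci and 25.3% without both rRNA loci. Leaving out the rRNA loci was chosen after seeing the data. Structural RNA genes were overlapped by 319 members at 50% and by 276 where at least 50% of the locus had to be covered. The reads of these members were not summed.

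Genes holding a member that changed numbered 145 in poly(A) (3.47%, against 2.27% of all genes) and 158 in footprints (3.77%, against 2.52%) with DESeq2, and 130 in footprints with no filter (3.05%, against 1.81%). At 50% long reads they numbered 48, 43 and 474 in poly(A), footprints and dsRNA (1.92%, 1.72% and 18.8%, against 1.18%, 1.19% and 15.7%). With a replicate block the counts were 149, 148 and 725 (3.55%, 3.52% and 17.0%, against 2.12%, 2.10% and 13.6%). Deviations of same-numbered libraries correlated at 0.112, -0.0407 and -0.0152, and with 2 pairs the numbers were not taken as pairing the samples. Leaving out 1 library gave 31 to 49 in poly(A), 43 to 79 in footprints and 225 to 1901 in dsRNA. RLE scaling and covering 50% of the locus kept all 3 counts within 1.5-fold. No direction of a named gene changed with DESeq2 or with 1 library left out, the settings run for single genes. Restricting to uniquely placed reads was not run, since that column is 0 throughout, nor was restricting structural RNA overlaps to the same strand, since the annotation used gives no strand for those genes. The cause of these shifts was not tested. Loci under 90 reads are not listed, which limits what depth can show.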

Other observations

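Over noncoding RNAs beyond the structural ones, counts differed by annotation. Of 2020 new noncoding transcripts whose coordinates the authors' table gives, 1035 (51.2%) were overlapped by a member, and 1442 members (20.8%) overlapped one, against 178 other loci (0.984%). Members overlapped 241 lncRNA, 27 ncRNA, 46 misc_RNA, 9 of 326 microRNA and 13 antisense RNA genes. Other loci, which are more numerous, overlapped 473, 57, 142, 246 and 2. A lncRNA gene was overlapped by 3.88% of the 6855 nuclear members and 2.39% of the 18090 other nuclear loci. For ncRNA genes the shares were 0.394% and 0.381%. For misc_RNA, microRNA and antisense RNA genes they were 0.511%, 0.131% and 0.190% of members, against 0.967%, 1.38% and 0.0166%. Annotated pseudogenes were overlapped at 42 of 3917 by members and at 3004 by other loci. The noncoding class was led by chr1:5297803-5298180 over AT1G05163 and AT1G15405, with 28096 reads and a top-strand fraction of 0.026. The next were AT5G09935 with 22462 reads and chr1:28889322-28890324, over AT1G09915 and the microRNA gene MIR4228, with 9446 reads.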
